A study of Mus musculus with 2 samples.

Results

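Cdkn1a, Btg2, Gadd45a, Plk2, Zmat3 and Phlda3 are target genes of p53 linked to the arrest of cell growth, and the regions around them on the mouse genome (build mm9) held 48 of the 92924 p53 peaks in the list. A peak is a stretch of DNA recovered more often with a p53 antibody than in input chromatin. Peaks were taken by position and not by score: a peak belonged to a locus if its midpoint lay in a window fixed around the gene. The window was of 60 kb for Cdkn1a (chromosome 17, 29.20 to 29.26 Mb) and 80 kb for Zmat3 (chromosome 3, 32.21 to 32.29 Mb). It was of 50 kb for Btg2 (chromosome 1, 135.95 to 136.00 Mb), Phlda3 (chromosome 1, 137.64 to 137.69 Mb), Gadd45a (chromosome 6, 66.96 to 67.01 Mb) and Plk2 (chromosome 13, 111.16 to 111.21 Mb). No mm9 gene annotation was used here, so the gene names stand for these windows, and the position of a peak relative to a promoter, exon or intron was not determined.

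The study sequenced 2 libraries, 1 of chromatin recovered with the p53 antibody M-19 and 1 of input chromatin with no antibody. Both came from cultured mouse embryonic stem cells of a C57BL/6X129Sv mix, at a passage below 20, kept undifferentiated with leukemia inhibitory factor and exposed to Nutlin for 8 hours. Nutlin blocks the contact of p53 with the ubiquitin ligase Mdm2, so p53 accumulates. Its dose was written as 20 in 2 different units in the labels, which is not settled here. Every cell was treated and each group had 1 library, so the values below carry no error between cultures and say nothing of a change upon treatment, and the list holds no expression values with which to check the cell type or the arrest.

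p53 is a transcription factor that binds as a tetramer to a response element made of decamers, and its stabilization after stress switches on genes that stop the cell cycle, among other programs. Cdkn1a encodes p21, an inhibitor of cyclin-dependent kinases. Gadd45a encodes a stress-induced protein with roles in growth arrest, Plk2 a polo-like kinase, Btg2 an antiproliferative protein that acts on mRNA decay, Phlda3 a pleckstrin homology domain protein that restrains Akt, and Zmat3 an RNA-binding zinc finger protein. In embryonic stem cells p53 is also known for limiting self-renewal.

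RefSeq promoter sequences (build GRCm38.p6, from 250 bases before to 50 after each start) were matched for 5 of the 6 genes, Zmat3 being the one without an entry. They are shown because p53 recognizes letters of this kind, but the peaks are on mm9 and the 2 builds were not joined, so whether these letters lie under a peak was not determined. Cdkn1a has 2 starts, 2790 bases apart. The window of the upstream start, at chr17:29090729-29091028 on the + strand, is printed whole, with capitals on the 20 letters nearest to a pair of adjoining p53 decamers.
Cdkn1a, upstream start: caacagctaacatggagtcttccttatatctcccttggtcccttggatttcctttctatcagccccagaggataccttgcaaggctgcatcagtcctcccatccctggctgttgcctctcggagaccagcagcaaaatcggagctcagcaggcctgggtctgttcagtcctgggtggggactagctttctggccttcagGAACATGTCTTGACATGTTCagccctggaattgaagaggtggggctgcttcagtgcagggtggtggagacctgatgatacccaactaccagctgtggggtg

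The capitals above start 51 bases before the upstream start of Cdkn1a and differ from the consensus at 1 of 20 letters. Of 32851 RefSeq promoter windows of this length, 29 (0.0883%) came that close or closer. The nearest 20 letters of the other windows are shown in capitals with the bases around them, each read 5′ to 3′ along the gene. Where stretches of a window were equally near, the first is shown.
Cdkn1a, downstream start (chr17:29093519-29093818, + strand): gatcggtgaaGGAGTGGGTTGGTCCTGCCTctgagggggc
Btg2 (chr1:134079106-134079405, - strand): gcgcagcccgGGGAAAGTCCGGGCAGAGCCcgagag
Gadd45a (chr6:67037358-67037657, - strand): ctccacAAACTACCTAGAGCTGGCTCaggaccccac
Plk2 (chr13:110394794-110395093, + strand): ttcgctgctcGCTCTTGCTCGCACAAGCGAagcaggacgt
Phlda3 (chr1:135765835-135766134, + strand): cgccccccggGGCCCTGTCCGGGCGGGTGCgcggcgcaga

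These windows came less close than the upstream Cdkn1a start. The nearest letters differed at 3 of 20 for Gadd45a, as few as in 6.29% of all promoter windows, at 4 for Btg2 (30.2%) and at 5 for Plk2, Phlda3 and the downstream Cdkn1a start (76.6%). An exact p53 decamer, whose consensus reads the same on both strands, was found in 2 of the 6 windows, against 8.36% of all windows. The upstream Cdkn1a window held 2 of them, GGACTAGCTT at 73 bases and GAACATGTCT at 51 bases before the start, the latter being part of the 20 capitals above. The Gadd45a window held 1, 40 bases before the start and apart from its capitals above, here itself in capitals: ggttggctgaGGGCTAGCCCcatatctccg

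Each of the 6 windows held at least 1 peak of the highest score class. The score is the authors' own, as their peak caller MACS wrote it, and starts at 50 in this list. Peaks of 1000 or more are referred to as strong and those under 100 as weak. It reaches exactly 3100 in 1390 peaks and lies above that in only 116, so most of the strongest peaks share 1 value and are not ordered by it. Whether the 116 are stronger than those at exactly 3100 was not determined. Of the 48 peaks at the 6 loci, 10 (20.8%, exact Clopper-Pearson 95% interval 10.5% to 35.0%) scored 3100 or more, against 1.62% of the whole list. Scores of 1000 or more were reached by 11 of 48 (22.9%, 12.0% to 37.3%), against 5.77% of the list. Scores of 100 or more were reached by 28 of 48 (58.3%, 43.2% to 72.4%), against 43.0% of the list, which lies just below this interval. The intervals cover counting error of peaks only, and neighbouring peaks of a window are not independent. They also do not cover the choice of the loci, made with earlier results of these data known.

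**Figure D1:**
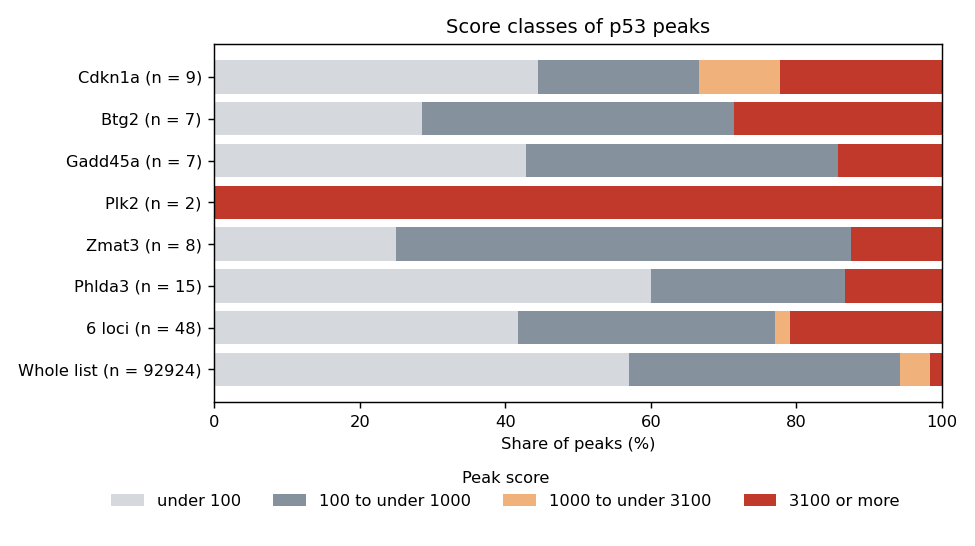
Share of peaks in each of 4 score classes, in percent, for each locus, for the 6 loci together and for the whole list, with the number of peaks in brackets. The class of 3100 or more takes 20.8% of the 48 peaks at the loci and 1.62% of the list, and both Plk2 peaks.

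The loci held a larger share of peaks in the highest class and a smaller share of weak ones than the list. Below 1000, they held 17 peaks of 100 or more (35.4% of their peaks, against 37.2% in the list) and 20 peaks under 100 (41.7%, against 57.0%). The 1 peak between 1000 and 3100 was at Cdkn1a. The median score over the 48 peaks was 117, against 87.5 in the list. In 5 of the 6 windows the median exceeded that of the other peaks of the chromosome, and Phlda3 was the exception, with 81.8 against 88.0.

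More than 1 peak of 3100 or more lay in the window at 4 of the 6 loci. At Btg2 this rests on the window's edge, since the second peak had its midpoint only 2278 bases inside it. Cdkn1a, Btg2, Plk2 and Phlda3 each had 2 peaks of 3100 or more, and Gadd45a and Zmat3 had 1 each. Of all 48225 windows of 50 kb that the peaks of the 19 autosomes span, 2.92% held a peak of this class and 0.170% held 2 or more. The peaks of the loci were left in for these window counts and for those given below. The Cdkn1a and Zmat3 windows are wider. Of the 60 kb windows of chromosome 17, 4.68% held such a peak and 0.455% held 2 or more. Of the 80 kb windows of chromosome 3, 2.91% held such a peak. Of the 10 such peaks at the loci, 8 had another one at most 25 kb away, against 9.83% of the 1506 in the list. For 6 of the 10 the nearest peak of any score was at most 1 kb away, against 35.2% of the 1506.

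**Figure D2:**
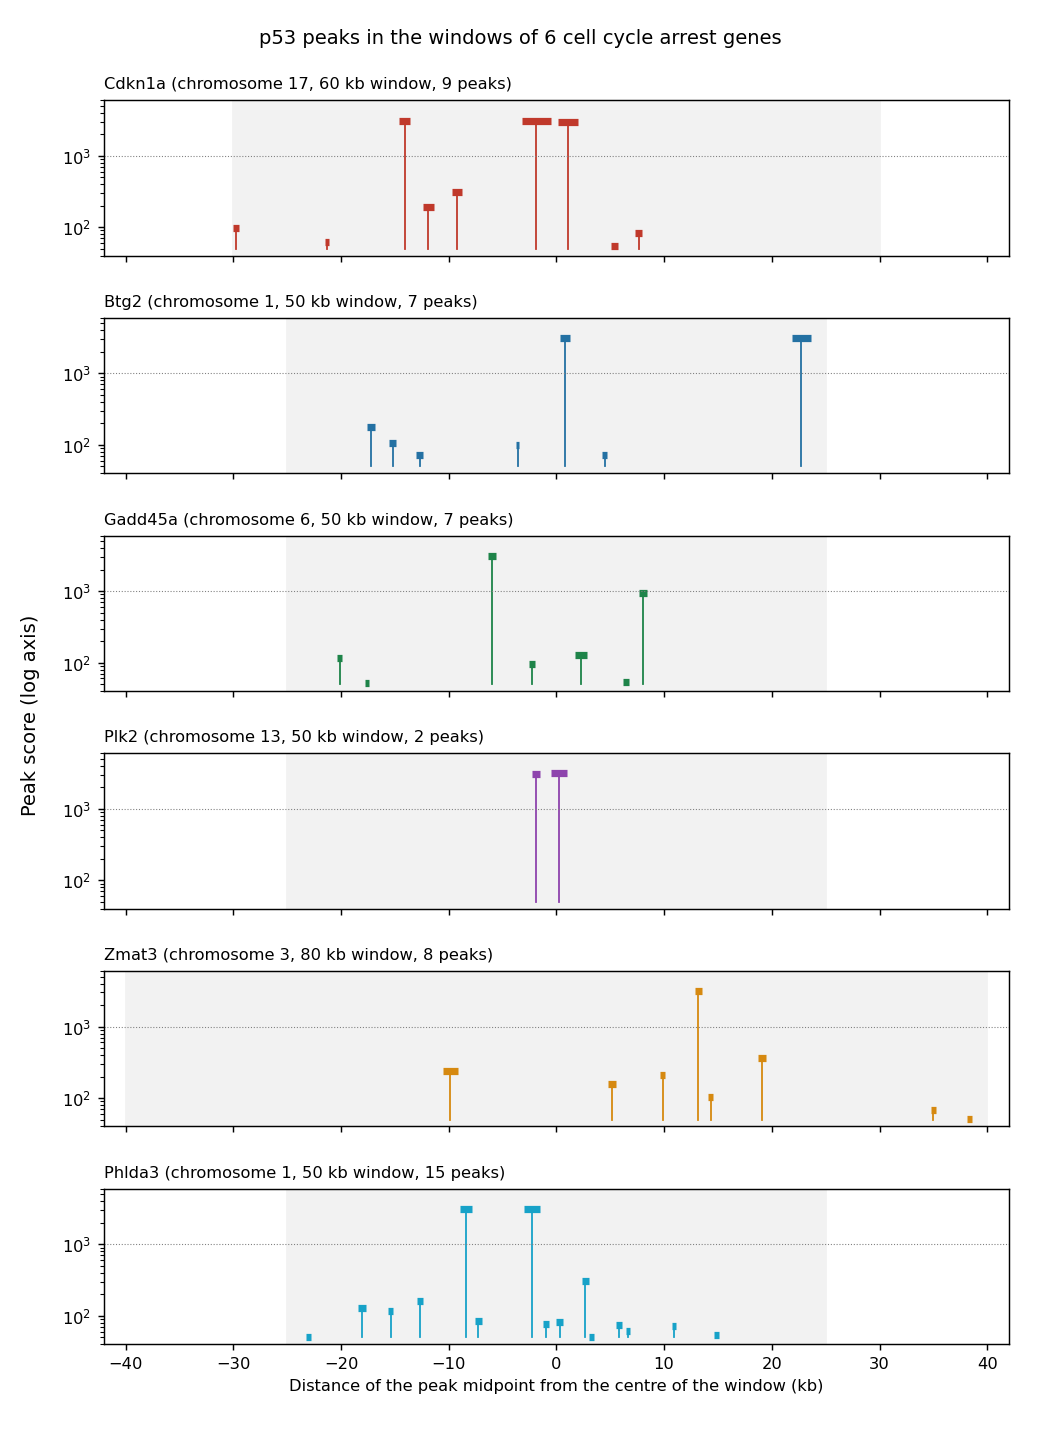
Peaks of each locus by distance of their midpoint from the centre of the window (kb) and by score (log axis). Each stem is 1 peak, the bar on it spans its width, the grey area is the window, and the dotted line marks a score of 1000. Plk2 shows 2 strong peaks alone, and Phlda3 shows 2 strong peaks among 13 weaker ones.

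At Cdkn1a, the p21 gene, 9 peaks covered 16.0% of the window. In order along chromosome 17 their scores were 98.60, 61.11, 3100, 190.02, 306.99, 3100, 2955.83, 54.66 and 82.91. The 3 strong peaks were thus not side by side: the first stood apart from the others, with 2 peaks of middle score between. The first strong peak was at chr17:29215405-29216432 (1028 bases), and the second at chr17:29226790-29229488, 10357 bases further on. The second was the widest peak at any of the 6 loci, at 2699 bases, a width reached by 14 of the 1506 peaks of its score class, itself included. The last of the 3, at chr17:29230154-29232031 (1878 bases), began 665 bases after the second ended. Its width was at the 98.4th percentile of peaks scoring 1000 to under 3100. Of the 1537 windows of 60 kb on chromosome 17, 7 (0.455%) held 3 or more peaks of score 1000 or more.

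Peaks of any score were about as dense close by as in the Cdkn1a window. The window had 150 peaks per Mb (exact Poisson 95% interval 68.6 to 285), and the 250 kb on each side had 144 per Mb, both above the 48.4 per Mb of chromosome 17. Windows of this size held a median of 1 peak, and 9.11% held 9 or more. The flanks held 72 peaks, of which 2 scored 3100 or more. The window, of 60 kb against 250 kb on each side, held 2 such peaks among its 9.

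At Gadd45a, 7 peaks covered 9.17% of the window, with scores of 115.44, 51.51, 3100, 96.65, 129.48, 53.63 and 931.30 along chromosome 6. A single peak thus stood far above the rest, and the last was next in score. The strong peak, at chr6:66978623-66979365, was narrow for its class at 743 bases, at the 19.3rd percentile of width among peaks of 3100 or more. The widest peak of the locus had a low score, at chr6:66986746-66987854, with 1109 bases at a score of 129.48, at the 98.8th percentile of width among peaks from 100 to under 200. The next peak of 3100 or more lay 196593 bases from the strong one. Gadd45a had 140 peaks per Mb (56.3 to 288), against 50 per Mb in its flanks and 30.7 per Mb on the chromosome.

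Plk2 had the fewest peaks, all of the highest score class. Its window held 2 peaks, scored 3100 at chr13:111182762-111183510 (749 bases) and 3213.57 at chr13:111184507-111185965 (1459 bases). They were 996 bases apart, and by score the latter ranked 27th in the whole list and 2nd on chromosome 13. This rank does not show that it was stronger than peaks at exactly 3100. No weaker peak was near them: the preceding peak ended 59143 bases before the pair, and the following one started 75854 bases after it. The density of 40 peaks per Mb (4.84 to 144) was not distinguishable from the 30.3 per Mb of the chromosome, and 37.5% of its 50 kb windows held 2 peaks or more. Of the 2340 windows of chromosome 13, 1 held 2 peaks of 3100 or more. The Plk2 peaks were left in when these windows were counted, so this 1 may be the Plk2 pair itself.

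At Btg2, 7 peaks covered 11.3% of the window, with scores of 177.38, 106.79, 71.69, 100.46, 3100, 72.55 and 3100 along chromosome 1. The strong peaks were 20537 bases apart, with 1 weak peak between them. The first lay near the centre of the window, at chr1:135975375-135976304 (930 bases), and the second near its end, at chr1:135996842-135998603 (1762 bases). A further peak of 3100, 923 bases wide, began 2374 bases after the second and fell outside the window, its midpoint 1438.5 bases past the edge. The Btg2 window thus ends inside a pair of strong peaks. Which gene they act on was not tested, and in RefSeq the protein-coding genes next to Btg2 are Fmod and Chit1.

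At Phlda3, p53 peaks were most crowded. Its 15 peaks covered 19.1% of the window, and 9 of them scored under 100. The 2 strong peaks, both scored 3100, were at chr1:137656014-137657207 (1194 bases) and chr1:137661952-137663508 (1557 bases), with 4744 bases and 1 weak peak between them. The other 13 scored from 50.16 to 307.08. Weak peaks began 273 bases after the first strong peak and 286 bases after the second. Of the 3877 windows of 50 kb on chromosome 1, 8 (0.206%) held 15 peaks or more, and the highest count was 19.

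The density at Phlda3 was 300 peaks per Mb (168 to 495), against 116 per Mb in its flanks and 34.4 per Mb on the chromosome. Its flanks held 58 peaks, each with a score below 3100. At Btg2, on the same chromosome, the density was 140 per Mb (56.3 to 288), against 106 per Mb in the flanks.

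At Zmat3, 8 peaks covered 6.80% of the window, with scores of 239.76, 158.86, 212.61, 3100, 103.46, 368.06, 66.95 and 51.03 along chromosome 3. A single strong peak stood among 5 of middle score, and the 2 weakest were last. The strong peak, at chr3:32262906-32263474, was the narrowest of the 10 peaks of 3100 or more at the loci, with 569 bases, at the 4.05th percentile of its class. Its nearest neighbour began 562 bases after it ended, and the next peak of 3100 or more was 314214 bases away. The widest peak of the locus was again one of lower score, at chr3:32239446-32240846, with 1401 bases at a score of 239.76. Zmat3 had 100 peaks per Mb (43.2 to 197), against 44.0 per Mb in its flanks, just inside this interval, and 25.6 per Mb on the chromosome.

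**Figure D3:**
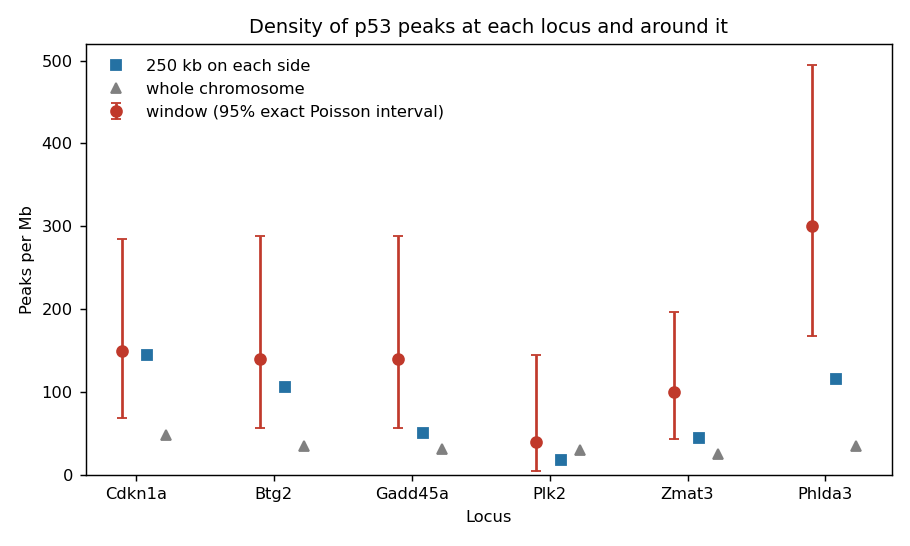
Peaks per Mb in each window (red, with its exact Poisson 95% interval), in the 250 kb on each side (blue) and on the whole chromosome (grey). The window lies above its flanks at all 6 loci, with values of 150 against 144 at Cdkn1a and 300 against 116 at Phlda3.

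Between loci, the density intervals overlapped in nearly all pairs, which does not show that the densities were alike. Of the 15 pairs of loci, 1 had intervals that did not overlap, Plk2 and Phlda3. The interval lay above the density of the chromosome at 5 of 6 loci, all but Plk2, and above that of the flanks at 2, Gadd45a and Phlda3. Peaks gather along the genome, so these intervals are too narrow.

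Peaks inside the windows lay closer together than in the list. The median distance from the end of a peak to the start of the next was 2945 bases over the 42 distances inside the windows, against 8421 bases in the list. By locus the median ran from 996 bases at Plk2, its single distance, over 2059.5 at Phlda3 and 2357.5 at Cdkn1a, to 3186.5 at Gadd45a, 3376 at Btg2 and 4014 at Zmat3. At each locus it was below the median of the chromosome, which ran from 6558 bases on chromosome 17 to 13691 on chromosome 3. A window can hold no distance longer than itself, which lowers these medians. Distances of at most 2 kb made up 35.7% at the loci and 20.6% in the list.

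Peaks at the loci had a higher median width, and higher scores, than the list. The median width was 633.5 bases, against 509 in the list. Within score classes, 30 of 48 (62.5%) were wider than the median of their class in the list. A median by definition splits a class into equal parts, and no interval was computed for this share. Wider than the class median were 13 of 20 peaks under 100, 6 of 11 from 100 to under 200 and 4 of 5 from 200 to under 500. So were 0 of 1 from 500 to under 1000, 1 of 1 from 1000 to under 3100 and 6 of 10 of 3100 or more. The median width of these 10 was 1111 bases, against 967.5 in their class. The widths of these 10 ran from 569 bases at Zmat3 to 2699 at Cdkn1a.

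**Figure D4:**
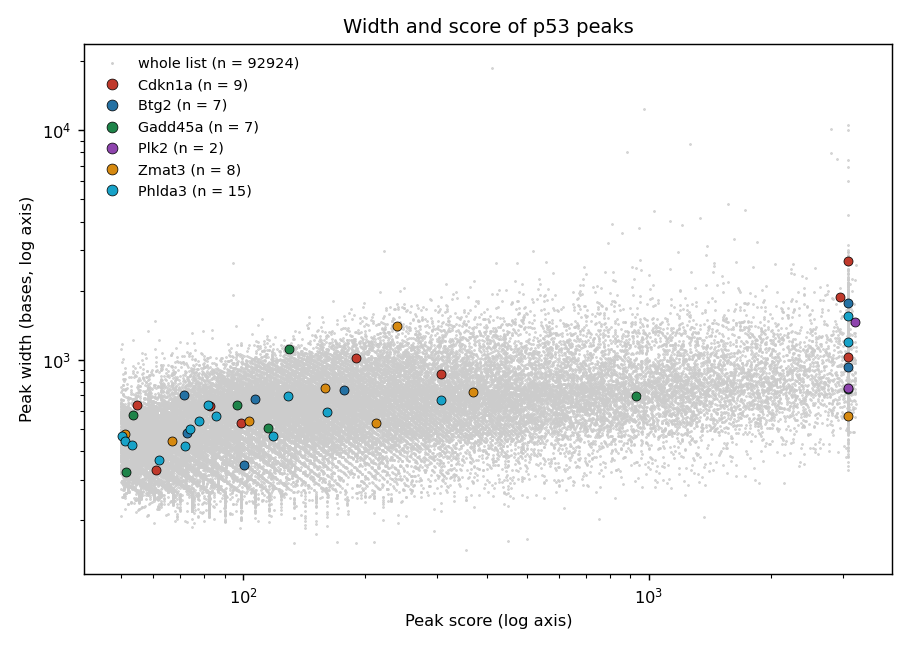
Width in bases against score, both on log axes, for all peaks (grey) and for those at the 6 loci (coloured). Peaks of the loci lie within the cloud of the list, and the 9 at exactly 3100 spread from 569 to 2699 bases.

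Assignment by any overlap in place of midpoint gave 49 peaks against 48. The edge mattered at Btg2, where 1 peak of 3100 had its midpoint 2278 bases inside it and another 1438.5 bases past it. The peak nearest to an edge on the inside was the first at Cdkn1a, with a score of 98.60 and its midpoint 250.5 bases from the edge. On the outside it was the one after the last Phlda3 peak, with a score of 511.82 and its midpoint 197 bases past the edge. Which other genes the windows hold was not determined. In RefSeq (GRCm38.p6) the protein-coding genes on either side of the loci are Srsf3 and Rab44 for Cdkn1a, Gng12 and Serbp1 for Gadd45a, Gapt and Actbl2 for Plk2, Csrp1 and Tnni1 for Phlda3, and Kcnmb2 and Pik3ca for Zmat3, and which gene a peak acts on was not tested.

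Of 21 other cell cycle genes linked to p53, peaks could not be assigned without an mm9 annotation, and the promoter letters of 15 were found in RefSeq, in 18 windows. An exact p53 decamer was present in 3 of the 18 windows, against 8.36% of all promoter windows. The 3 were at Ccng1 (cyclin G1), Sesn1 (a sestrin) and Gtse1 (a microtubule-associated regulator of p53). The nearest 20 letters to a pair of decamers differed at 1 of 20 in Ccng1 and in 1 window of Gtse1. This was as few as at the upstream Cdkn1a start. They differed at 3 in Cdkn1b and in 1 window of Sesn1, and at 4 to 6 in every other window of the list. A further Gtse1 window, at 6, was among the latter and held no exact decamer. The letters of Ccng1 and of the nearer Gtse1 window are shown for comparison.
Ccng1 (chr11:40755237-40755536, - strand): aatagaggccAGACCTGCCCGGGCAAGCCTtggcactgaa
Gtse1 (chr15:85859696-85859995, + strand): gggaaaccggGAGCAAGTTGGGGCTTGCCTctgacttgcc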

How the data were processed

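The deposited peak list gives chromosome, start, end, name and score, called from 1 p53 ChIP library against 1 input library. Samples were grouped by their titles. CASAVA 1.8.2, MACS 1.4.1 and the build mm9 were used, per the submitters' processing notes. Aligner, caller settings and read totals: not given in the sources used here. The depth of each library is therefore unknown. The score values were deposited by the authors as the caller wrote them, and in MACS such a score grows with depth as well as enrichment. Starts, counted from 0 in the file, are printed counted from 1.

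Peaks were assigned to windows by midpoint. Each chromosome was cut, between its first and last peak, into adjoining windows of the width of the locus, which serve as a description, not a test. The peaks of the locus itself were left in. No p-value was computed, since each group has 1 library. Percentiles of width were taken within the score classes 50, 100, 200, 500, 1000 and 3100 upward. Promoters were searched for the p53 decamer (10 letters, both strands) and for 20 letters nearest to a pair of decamers, the first being taken among equals. Described singly were peaks of score 1000 or more, the highest and the widest of each window, and the peaks of a window with 5 or fewer; the peak after the Btg2 window, the peak scored 931.30 at Gadd45a and weak peaks beside strong ones were picked after their values were seen. The members and lists were chosen with earlier results of these data known. Functions were tested on simulated data. Python 3.11.15, NumPy 2.4.6, pandas 2.3.3, SciPy 1.17.1 and Matplotlib 3.10.9 were used. Alternatives were a score minimum of 100, assignment by any overlap, windows of other widths, joining peaks separated by at most 1 kb, and shifted windows.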

Additional observations from a re-analysis of the deposited data

How the results depend on the processing

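All 6 loci held a peak of score 1000 or more under each of the 5 alternatives tried for that count. A score minimum of 100, any overlap and wider windows could not lower it by construction, and joined peaks kept their highest score. Narrower windows were thus the main alternative that could lower it. They left out the second Btg2 peak of 3100, 22.7 kb from the centre, so Btg2 then held only 1 such peak. Of 42 alternative values, 30 stayed within the interval of the main value (or, for counts, within 1.5 times it) and 12 did not. Windows of double the width held 78 peaks. The other 11 all came from a minimum score of 100, which removes weak peaks by construction: 28 peaks were left at the loci, of which 39.3% scored 1000 or more, and the medians were 307 for score, 746 bases for width and 3825.5 bases for distance. With this minimum, the share of windows holding at least as many peaks as the locus fell from 9.11% to 6.96% for Cdkn1a. It fell from 5.49% to 2.17% for Btg2 and from 3.38% to 2.56% for Gadd45a. The fall was from 37.5% to 15.9% for Plk2 and from 4.86% to 1.02% for Zmat3. For Phlda3, where 9 of 15 peaks scored under 100, the share rose from 0.206% to 0.930%. No paired analysis was possible because there is a single library of each kind, which also leaves no replicate to omit. How far weak peaks can be trusted depends on the read depth, which is unknown.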

Other observations

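Btg2 and Phlda3 lie on the same chromosome, with 1.64 Mb between their windows. This stretch held 195 peaks, or 119 per Mb, against 34.4 per Mb on chromosome 1 as a whole. Of these, 6 (3.08%) scored 3100 or more, against 1.62% of the whole list. The peak of 3100 just past the edge of the Btg2 window is among the 6. By the density of its peaks, the stretch between the windows of Btg2 and Phlda3 is thus itself rich in peaks.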
